A study of Mus musculus with 32 samples.

Results

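Il33, the gene of the cytokine interleukin-33, was followed here as 1 of the 11818 genes of a mouse lung organoid RNA-sequencing table. It was selected by name from its responses to osteoglycin (OGN) and to soluble factors (SFs) in fibroblasts against Epcam+ cells in these same libraries, so every value of Il33 below is a description and carries no test. Epcam+ cells negative for CD45 and CD31 came from the lungs of 4 naive C57BL/6J mice, 8 to 14 weeks old. In each culture 300000 of them were mixed in Matrigel with 300000 CCL206 fibroblasts, a line from mouse lung that had been kept from dividing with mitomycin. Cultures of each mouse received vehicle, extracellular vesicles (EVs) at 1000000000 particles per mL, SFs at 30 µg/mL or recombinant human OGN at 10 µg/mL for 72 h, and were then separated again into Epcam+ and CCL206 fractions with Epcam beads. The EVs and SFs came from MRC5, a line of human lung fibroblasts, and the vehicle cultures held the same 2 cell populations without any of these additions. The fibroblasts were 1 line in all cultures, so the 4 mice are replicates of the epithelium and of the culture, not of the fibroblast. The 8 groups of 4 libraries made 32 libraries. The purpose was to see how the secretome of lung fibroblasts, and OGN as a protein of it, acts on both cell populations of the organoid.

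IL-33 belongs to the IL-1 family. It is made without a classical secretion signal, is held in the nucleus on chromatin and leaves cells that are damaged or stressed, for which it is called an alarmin. In the mouse lung alveolar type 2 (AT2) cells are a main source, and fibroblasts can also make it. Outside the cell it binds the receptor ST2, encoded by Il1rl1, together with the co-receptor encoded by Il1rap. The signal runs through Myd88, Irak kinases and Traf6 to NF-kB, and it is known for its action on group 2 innate lymphoid cells, mast cells and regulatory T cells. Proteases of inflammatory cells sharpen its activity.

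The RefSeq annotation of GRCm38.p6 places Il33 on the forward strand at chr19:29925113-29960718. It holds 3 coding transcripts with 2 start sites 20677 bases apart, called distal and proximal here. The canonical transcript of the GENCODE annotation has 8 exons and 3383 bases. A long non-coding RNA, Gm41832, overlaps Il33 over 1932 bases in RefSeq and is on the opposite strand in GENCODE. Whether reads were counted by strand is not given in the sources used here, so reads of that RNA could not be told from those of Il33 in the overlap. The 250 bases in front of each start are shown because they are the promoter windows of the gene whose level changed, with capitals for the motif matches described next.
Distal Il33 start, chr19:29924863-29925112: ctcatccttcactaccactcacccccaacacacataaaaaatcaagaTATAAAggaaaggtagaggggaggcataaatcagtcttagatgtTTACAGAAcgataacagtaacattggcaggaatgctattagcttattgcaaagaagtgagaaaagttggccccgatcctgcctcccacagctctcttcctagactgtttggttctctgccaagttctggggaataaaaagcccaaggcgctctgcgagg
Proximal Il33 start, chr19:29945540-29945789: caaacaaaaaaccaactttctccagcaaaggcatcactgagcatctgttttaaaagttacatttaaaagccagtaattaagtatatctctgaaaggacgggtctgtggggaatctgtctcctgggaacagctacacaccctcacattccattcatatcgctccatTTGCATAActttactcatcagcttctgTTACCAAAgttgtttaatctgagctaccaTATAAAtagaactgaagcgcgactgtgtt
Both windows are read on the forward strand of GRCm38.p6, and positions count back from the first transcribed base. The core promoter element TATAAA was present between -29 and -24 in the proximal window, and between -203 and -198 in the distal window. The letters TTNCNNAA, a loose form of the C/EBP motif, matched between -159 and -152 in the distal window, and in the proximal window both between -85 and -78 and between -58 and -51. Neither window held a match to the NF-kB consensus, to AP-1 (TGANTCA) or to the interferon response motif (a pair of GAAA with 2 bases between them), with both strands searched. The matches do not overlap. Of all 32851 windows of this length in front of RefSeq starts, 12.4% held that core element, 36.8% the C/EBP letters, 7.25% the NF-kB consensus, 6.75% the AP-1 letters and 2.98% the interferon response motif. The windows had a GC content of 45.2% and 39.6%, against a median of 52.4% over all windows. These matches describe letters and say nothing of binding.

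The authors deposited whole-number read counts, and the libraries held between 1805914 and 17675454 counts (median 5901652). Il33 had between 293 and 3306 counts in a library. Levels are given in CPM, a library's counts scaled to a common total, and the 95% exact Poisson interval of the shallowest one, SF-treated Epcam+ cells of mouse 2, ran from 155 to 194 CPM around 174 CPM. Such intervals cover counting error only. Epcam itself was at 293 ± 28.0 CPM (SD, n = 4) in vehicle-treated Epcam+ cells and at 11.8 ± 3.62 CPM in the CCL206 fraction, and 9 of the 10 genes of the fibroblast signature were in the table. The AT2 signature summed to between 9704 and 16115 CPM in vehicle-treated Epcam+ cells, and to between 1897 and 5000 CPM in the CCL206 fraction. The EV-treated CCL206 libraries of mice 2 and 4 stood apart: their deviations from vehicle fell with transcript length, with Spearman's rho across 11617 genes of -0.583 and -0.623. The EV-treated CCL206 libraries of mice 1 and 3 were at -0.287 and -0.364, and libraries of the other groups between -0.288 and 0.33. Genes are not independent replicates. In bulk RNA, more cells that express Il33 and more Il33 RNA per cell cannot be told apart.

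Il33 was measured in both populations, and OGN-treated cultures had the most of it in each. In vehicle-treated Epcam+ cells the 4 mice gave 178, 168, 167 and 137 CPM. In vehicle-treated CCL206 fibroblasts of the same cultures they gave 73.6, 64.9, 53.3 and 53.9 CPM, all below every Epcam+ library. With EVs the Epcam+ libraries were at 187, 155, 186 and 172 CPM. These lay within or just above the vehicle range, with mouse 2 under its own vehicle library. With SFs they were at 199, 174, 182 and 179 CPM, which overlapped with vehicle. With OGN they were at 249, 251, 241 and 206 CPM, and all 4 were above all 4 vehicle libraries. In CCL206 fibroblasts EVs gave 114, 107, 84.3 and 75.0 CPM. SFs gave 120, 93.2, 101 and 98.4 CPM. Every EV- and SF-treated fibroblast library was above every vehicle one, the lowest with EVs only just, and the EV and SF groups overlapped. OGN gave 233, 208, 191 and 218 CPM. All 4 OGN-treated fibroblast libraries were thus above all other CCL206 libraries and also above all 4 vehicle-treated Epcam+ libraries.

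**Figure D1:**
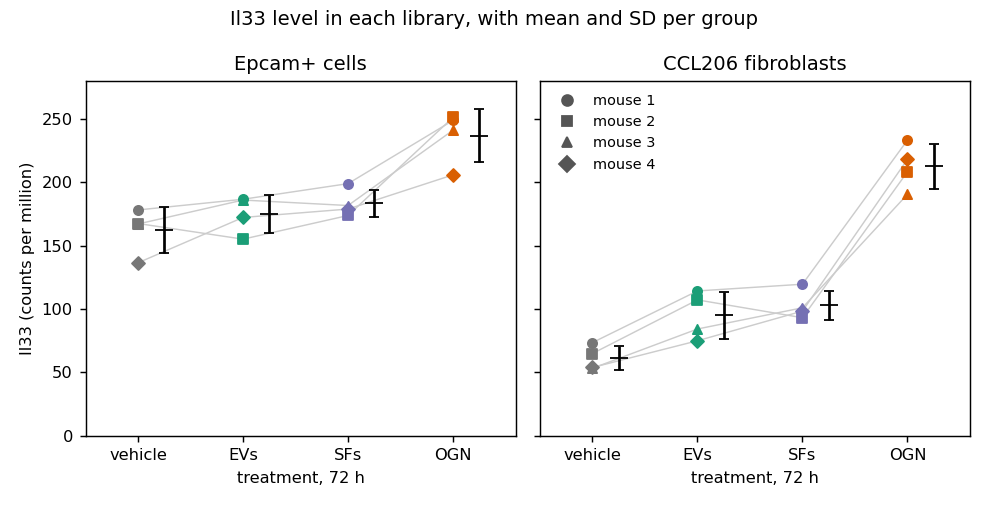
Il33 level in CPM (vertical axis, from 0) in each of the 32 libraries by treatment, for Epcam+ cells on the left and CCL206 fibroblasts on the right. Symbols are mice, grey lines join the libraries of a mouse, and black bars are the mean and SD of 4 mice. The fibroblast libraries rise from between 53.3 and 73.6 CPM with vehicle to between 191 and 233 CPM with OGN, while the Epcam+ libraries start higher.

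Ordered by mean, the 8 groups ran from OGN-treated Epcam+ cells at 237 ± 21.1 CPM (SD, n = 4) through OGN-treated fibroblasts at 213 ± 17.9, SF-treated Epcam+ cells at 183 ± 10.9, EV-treated Epcam+ cells at 175 ± 14.8 and vehicle-treated Epcam+ cells at 162 ± 18.0. Below these came the SF-treated fibroblasts at 103 ± 11.5, the EV-treated fibroblasts at 95.2 ± 18.6 and the vehicle-treated fibroblasts at 61.4 ± 9.70 CPM. Neighbours in this order overlapped in their library values at all but 2 steps. The steps without overlap were those between vehicle-treated Epcam+ cells and SF-treated fibroblasts, and between EV-treated and vehicle-treated fibroblasts. In a fit of edgeR with the mouse in the model, the vehicle level in fibroblasts was lower than in Epcam+ cells by a log2 difference of -1.43 (SE 0.0972). For the same contrast 69.6% of the 11805 genes tested were called in either direction, called meaning a Benjamini-Hochberg adjusted p under 0.05 in edgeR's quasi-likelihood test.

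With OGN, Il33 in CCL206 fibroblasts was 3.61-fold its vehicle level, a log2 fold change of 1.85 (SE 0.103). The normalised counts (counts per library scaled for depth and composition) were 1613, 1427, 1266 and 1495 with OGN, against 476, 432, 351 and 358 with vehicle, in mice 1 to 4. Within single mice the log2 change was thus 1.76, 1.72, 1.85 and 2.06. Of the 11689 genes tested, 29 (0.248%) had a higher log2 fold change, and 4.56% were called in either direction. That share moved with the libraries in the fit. The count was 533 with all 16 fibroblast libraries and 1770 of 11688 without the EV-treated ones. With only the vehicle and OGN libraries it was 1370 of 11685. Shares of genes called in fibroblasts are given below from the fit of all 16. All 4 treated libraries above all 4 vehicle libraries was found for 8.42% of the genes. With SFs the log2 fold change of Il33 in fibroblasts was 0.78 (SE 0.103), a fold of 1.72, with 0.74, 0.53, 0.95 and 0.88 in the 4 mice. There 121 genes (1.04%) had a higher log2 fold change, 0.0599% were called and 4.52% had all treated libraries above all vehicle libraries. The number called was 7, against 108 without the EV-treated libraries and 302 with only the vehicle and SF libraries. With EVs the log2 fold change of Il33 was 0.71 (SE 0.104), a fold of 1.64, with 0.69, 0.84, 0.68 and 0.62 in the 4 mice. That value stood in a comparison in which 36% of genes were called, 11.9% had all treated libraries above all vehicle libraries and 1021 genes (8.73%) had a higher log2 fold change. With the trend on transcript length taken out of each library it was 0.72, and leaving out EV-treated fibroblasts of mice 2 and 4, the libraries that followed length most, it was 0.66.

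In Epcam+ cells the log2 fold change of Il33 with OGN was 0.58 (SE 0.0754), a fold of 1.49. The change in the 4 mice was 0.50, 0.61, 0.55 and 0.66, so all 4 were higher. Of the 11716 genes tested, 234 (2.00%) had a higher log2 fold change, 2.7% were called in either direction and 3.16% had all 4 treated libraries above all 4 vehicle libraries. With SFs it was 0.17 (SE 0.0764), with 0.16, 0.06, 0.10 and 0.36 in the 4 mice. With EVs it was 0.11 (SE 0.0752), with 0.08, -0.13, 0.14 and 0.30. In these comparisons 0.23% (SFs) and 0.888% (EVs) of genes were called. The 3 treatments of a population share its vehicle libraries, and the low vehicle library of mouse 4 in Epcam+ cells enters all 3 of its changes, which were the highest of the 4 mice for each treatment.

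**Figure D2:**
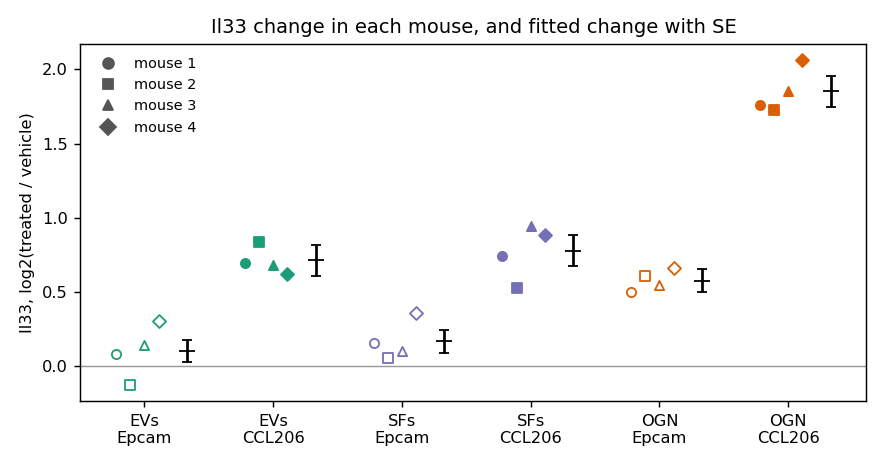
Il33 change as log2 of treated over vehicle normalised counts (vertical axis) in each mouse, by treatment and population. Symbols are mice, open in Epcam+ cells and filled in CCL206 fibroblasts, and black bars are the fitted log2 fold change with its SE. Every fibroblast change lies above 0.5, and the OGN changes of fibroblasts lie between 1.72 and 2.06, against 0.50 to 0.66 in Epcam+ cells.

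The OGN response of Il33 was larger in fibroblasts than in Epcam+ cells by 1.27 on the log2 scale (SE 0.127) in a fit of all 32 libraries, and by 1.26, 1.11, 1.31 and 1.40 in the 4 mice. Of the 11805 genes, 43 had a higher difference, and 0.551% were called in either direction. The SF response differed by 0.60 (SE 0.128), with 0.59, 0.47, 0.84 and 0.52 in the mice, and 399 genes (3.38%) had a higher difference, while 0% of genes were called. That is a count of 0 in edgeR's quasi-likelihood test. At an unadjusted p under 0.05 there were 590 genes, about the number that chance alone gives over 11805 tests. The DESeq2 Wald test called 2 genes. The EV response differed by 0.58 (SE 0.129), with 0.61, 0.96, 0.54 and 0.32 in the mice, in a comparison with 23.8% of genes called. All 12 of these differences between the fractions of a culture were above 0. Il33 was selected from those of OGN and SFs, and the differences of a mouse share its vehicle libraries. The OGN-treated levels themselves overlapped between the populations, and the vehicle levels did not.

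The level in fibroblasts relative to Epcam+ cells of the same culture moved with treatment, and signals of RNA from the other population in each fraction are set beside it. Il33 in the CCL206 fraction was 37.8 ± 4.13% (SD, n = 4 cultures) of its CPM in the Epcam+ fraction with vehicle, 54.8 ± 12.4% with EVs, 56.1 ± 2.82% with SFs and 90.4 ± 12.1% with OGN. The highest single culture, OGN in mouse 4, reached 106%, and the lowest, vehicle in mouse 3, was at 31.9%. For Epcam, the surface protein of the sort, the same ratio was 3.99 ± 1.18%, 5.50 ± 2.15%, 3.56 ± 1.59% and 5.45 ± 2.72%. The median ratio over the 10 genes of the AT2 signature was 22.8 ± 8.48%, 21.5 ± 2.18%, 15.8 ± 4.88% and 24.3 ± 8.04%. AT2 transcripts were thus measured in the CCL206 fraction of every culture, with medians from 9.24% to 35.2% in single cultures. Some epithelial genes were also called higher in the CCL206 fraction with OGN, in the comparison with 4.56% of genes called. These were 2 of the 10 AT2 genes, the surfactant protein genes Sftpa1 (log2 fold change 0.83, SE 0.187, adjusted p 0.0149) and Sftpd (0.88, SE 0.236, adjusted p 0.046), and 1 of 7 epithelial markers, Cldn4 (1.32, SE 0.302, adjusted p 0.0171). In the other direction, the median over the 9 fibroblast signature genes of their level in the Epcam+ fraction, as a percent of that in the CCL206 fraction, was 21.4 ± 4.32% with vehicle, 37.4 ± 11.4% with EVs, 25.5 ± 3.41% with SFs and 19.3 ± 2.28% with OGN. Fibroblast signature transcripts were thus measured in the Epcam+ fraction too. These genes differed as well. With vehicle, Fbln1 was at 27.5 ± 12.7 CPM in the Epcam+ fraction and at 2.78 ± 0.578 CPM in the CCL206 fraction. The other signature genes measured had lower vehicle means in the Epcam+ fraction. Il33 in the CCL206 fraction less the AT2 share of the Il33 level in Epcam+ cells came to 23.3 ± 11.7 CPM with vehicle, 57.5 ± 15.7 with EVs, 73.8 ± 7.59 with SFs and 155 ± 33.9 with OGN. That share is a median over genes that differed widely. The highest ratio of a single AT2 gene, mostly that of Lrrk2, ran from 47.7% to 403% over the cultures. The remainders therefore depend on the genes taken and do not measure the Il33 RNA made by the fibroblasts. The Epcam ratio, taken as the share, was smaller than the Il33 ratio in all 16 cultures, but the beads sorted by Epcam itself. The ratio of Sftpc, encoding surfactant protein C, was larger than that of Il33 in some cultures. These were vehicle in mouse 1 (403% against 41.3%) and mouse 3 (36.9% against 31.9%), and EVs in mouse 4 (44.9% against 43.5%). In the others the Sftpc ratio was smaller. In mouse 1 with vehicle the AT2 median was 32.8% and Sftpc was at 674 CPM in the Epcam+ library, against between 4855 and 6838 CPM in the other mice. The part of RNA carried over between the fractions in the Il33 level was not tested.

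**Figure D3:**
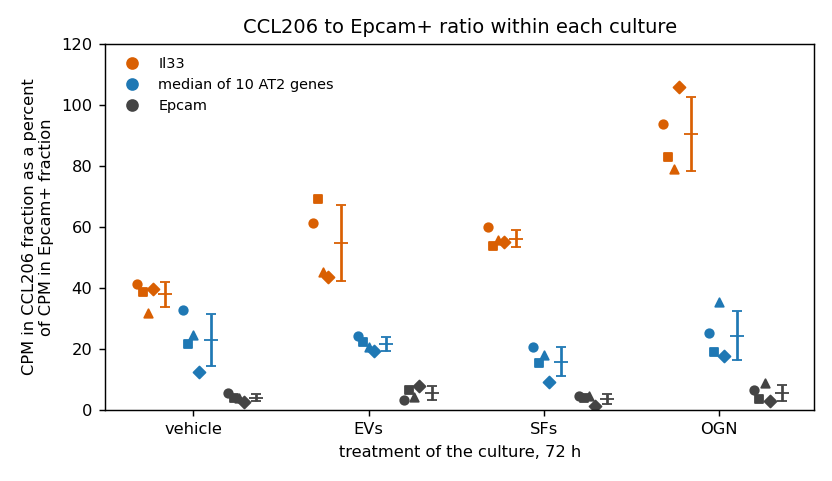
CPM in the CCL206 fraction as a percent of CPM in the Epcam+ fraction of the same culture (vertical axis, from 0), by treatment, for Il33, the median of the 10 AT2 genes and Epcam. Symbols are mice (circle 1, square 2, triangle 3, diamond 4), and bars are the mean and SD of 4 cultures. The Il33 ratio goes from 37.8% with vehicle to 90.4% with OGN, while the mean of the AT2 median lies between 15.8% and 24.3%, with single cultures from 9.24% to 35.2%.

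Other cell types could also carry Il33 or answer to it, so their markers were read. Of 8 endothelial markers 7 were not in the table, where each gene has 1 count or more in all libraries, and the remaining one, Vwf, was at most at 6.02 CPM. Of 9 macrophage markers 7 were not in the table, Ptprc and Adgre1 among them, and of 8 markers of mast cells and group 2 innate lymphoid cells 5 were not, Kit, Cpa3 and Il7r among them. Of 4 mesothelial markers 1 was in the table, Msln. With vehicle it was at 378 to 471 CPM in Epcam+ cells and at 53.5 to 64.0 CPM in fibroblasts. Msln was not called with OGN in either population. With EVs it was higher in fibroblasts (0.46, SE 0.134, adjusted p 0.018), in the comparison with 36% of genes called. Lyz2, a lysozyme of macrophages that AT2 cells also make, was higher with OGN in Epcam+ cells (log2 fold change 0.69, SE 0.0886, adjusted p 2.72e-05) and in fibroblasts (1.03, SE 0.211, adjusted p 0.00741). Cd68, the other macrophage marker measured, was not called with OGN (adjusted p 0.492 and 0.834), where 2.7% and 4.56% of genes were. Of 4 basal cell markers measured, Krt5, Krt15 and Aqp3 were lower in Epcam+ cells with each of the 3 treatments, with log2 fold changes from -1.14 to -0.58 and adjusted p of at most 0.000766. Trp63 was not called (adjusted p 0.368 with OGN, 0.608 with SFs and 0.392 with EVs). Of all genes, 2.7% (OGN), 0.23% (SFs) and 0.888% (EVs) were called in Epcam+ cells. The summed level of the 4 basal markers in the table ranged in Epcam+ cells from 890 to 2596 CPM with vehicle and from 461 to 1602 CPM with OGN. Club cell markers fell with OGN in Epcam+ cells as well, Scgb1a1 by 0.96 on the log2 scale (adjusted p 0.000182) and Cyp2f2 by 0.53 (adjusted p 0.00132). These were 2 of 4 club and ciliated markers measured, against 2.7% of all genes. Of the 10 genes that the study lists as its AT2 signature, Sftpa1 (0.42, adjusted p 0.00496) and Sftpd (0.45, adjusted p 0.00673) were higher there. Hopx, also on that list, was lower (-0.64, adjusted p 0.0077), and the median log2 fold change of the 10 was -0.00. These calls too stand beside 2.7% of all genes. The part of these cell types in the Il33 level was not tested.

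Of the receptor genes, Il1rap rose with OGN in fibroblasts and Il1rl1 was not called with any treatment. Il1rl1, encoding ST2, was higher in vehicle-treated fibroblasts, at 39.0, 39.6, 38.9 and 38.9 CPM, than in Epcam+ cells, at 5.88, 8.15, 11.6 and 7.31 CPM. The difference was 2.30 on the log2 scale (SE 0.184, adjusted p 3.2e-12), so the receptor gene was the higher where the ligand gene was the lower. In fibroblasts its log2 fold change with OGN was -0.15 (SE 0.126, adjusted p 0.642), and in Epcam+ cells it was -0.30 (SE 0.246, adjusted p 0.68). Il1rap, encoding the co-receptor that ST2 shares with the IL-1 and IL-36 receptors, rose in fibroblasts with OGN. Its level was 15.3, 19.4, 25.8 and 27.6 CPM with OGN, against 6.11, 10.6, 8.67 and 10.5 CPM with vehicle, so the groups did not overlap. The log2 fold change was 1.34 (SE 0.18, adjusted p 0.000217), and it was called under every alternative run. With vehicle Il1rap was lower in fibroblasts than in Epcam+ cells (-0.57, SE 0.198, adjusted p 0.0117), a call lost without mouse 1 or mouse 3 (adjusted p up to 0.223). In Epcam+ cells the log2 fold change of Il1rap with OGN was 0.19 (SE 0.208, adjusted p 0.782), and the difference of the OGN responses was 1.15 (SE 0.276, adjusted p 0.0515), which missed the threshold. Over the alternatives that p ran from 0.00277 to 0.573, and it passed in 5 of 10. Of the other 12 genes from the receptor to the IKK complex, none was called with OGN (against 2.7% of all genes in Epcam+ cells and 4.56% in fibroblasts) or with SFs (0.23% and 0.0599%), which is near these shares. Tab3, an adaptor of the Tak1 kinase, was lower with EVs in fibroblasts (-0.59, SE 0.184, adjusted p 0.0223).

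The larger list of the pathway held 89 genes, of which 59 were in the table. Il1a, Il1b, Il18, Tslp and Il25 were not in it, and the table held the antagonist genes Il1rn and Il18bp, neither of which was called with a treatment. With OGN 6 of the 59 genes (10.2%, against 2.7% of all genes) were called in Epcam+ cells, 5 higher and 1 lower. In fibroblasts 8 (13.6%, against 4.56%) were called, 6 higher and 2 lower. The list genes had a median log2 fold change of 0.04 and 0.08 in these comparisons, against -0.00 and -0.01 over all genes tested. The lists were chosen with earlier results of these data known, so the shares are a description. Of the Epcam+ calls, 4 higher and 1 lower were among the 8 measured genes listed as made by IL-33-exposed cells, and the other was Tnfaip3. Those 8 genes held 3 higher and 1 lower of the fibroblast calls. All SF calls, and all EV calls in Epcam+ cells, were also among them. With SFs 3 genes (2 higher, 1 lower) were called in Epcam+ cells, where 0.23% of all genes were, and 1 in fibroblasts, where 0.0599% were. The higher ones in Epcam+ cells were Cxcl5 and Cxcl1 (log2 fold change 0.83). The Cxcl1 call with SFs was lost in 9 of 12 alternatives (adjusted p up to 0.814). With EVs 2 were called in Epcam+ cells, against 0.888% of all genes, and 14 (23.7%) in fibroblasts, below the 36% of all genes. The genes that moved most with OGN were chemokine genes known to be induced by IL-1 family cytokines, among other signals. Cxcl5, a neutrophil attractant of lung epithelium, went from between 85.7 and 128 CPM with vehicle to between 550 and 650 CPM with OGN in Epcam+ cells, a log2 fold change of 2.67 (SE 0.114, adjusted p 2.71e-13). In fibroblasts it went from between 32.4 and 51.6 CPM to between 252 and 329 CPM, a log2 fold change of 2.88 (SE 0.176, adjusted p 7.65e-08). Cxcl5 was the only list gene called in all 6 comparisons of a treatment with vehicle, with 1.10 (EVs) and 1.28 (SFs) in Epcam+ cells and 0.88 (EVs) and 1.07 (SFs) in fibroblasts. The SF call in fibroblasts was lost without mouse 1, 3 or 4 (adjusted p 0.647, 0.247 and 0.19), and the EV call there without mouse 2 (adjusted p 0.0515).

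Ccl20, which attracts cells bearing Ccr6, rose with OGN in both populations. In fibroblasts it had 19.3, 15.1, 18.5 and 10.3 CPM with OGN, against 1.75, 2.52, 1.14 and 0.80 CPM with vehicle, the latter from 8 to 18 counts a library. Its log2 fold change was 3.43 (SE 0.278, adjusted p 1.79e-06) there and 1.48 (SE 0.18, adjusted p 1.58e-05) in Epcam+ cells. The difference of these responses, 1.93 (SE 0.34, adjusted p 0.00302), was the only one of a list gene called for OGN, and it was lost without mouse 1 (adjusted p 0.0935) or mouse 3 (0.223). Ccl20 also rose with EVs in fibroblasts, by 2.16 (SE 0.303, adjusted p 0.00149). Cxcl1, another neutrophil attractant, rose with OGN by 1.27 (SE 0.17, adjusted p 4.79e-05) in Epcam+ cells and by 1.04 (SE 0.162, adjusted p 0.000825) in fibroblasts, where the call needed the mouse in the model (adjusted p 0.181 without it). Icam1, an adhesion molecule, rose by 0.38 (SE 0.0654, adjusted p 0.0011) in Epcam+ cells, a call lost with all 32 libraries in the fit (adjusted p 0.175). Tnfaip3, encoding the NF-kB inhibitor A20, rose there by 0.55 (SE 0.102, adjusted p 0.00222), a call lost without mouse 1 (adjusted p 0.0793) or without the mouse term (0.315). Nfkb1, an NF-kB subunit, rose in fibroblasts by 0.55 (SE 0.096, adjusted p 0.00224) and kept its call under every alternative run.

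Calls of the list genes that follow were lost when single mice were left out. In fibroblasts with OGN, Casp4, an inflammatory caspase, was higher by 0.36 (SE 0.0874, adjusted p 0.0235), and the call was lost when any 1 of the 4 mice was left out (adjusted p between 0.0543 and 0.277) and with all 32 libraries in the fit (0.08). Anxa1 and Vcam1, encoding a pro-resolving alarmin and an adhesion molecule, were lower at -0.47 (SE 0.119, adjusted p 0.0318) and -0.57 (SE 0.131, adjusted p 0.0187). The Anxa1 call was lost without mouse 1, 2 or 3 (adjusted p up to 0.243), and the Vcam1 call without mouse 1, 3 or 4 (up to 0.156). Without the mouse term both were lost as well (adjusted p 0.0546 and 0.0872). Retnla, known as a gene of type 2 responses, was lower in Epcam+ cells with OGN at -0.43 (SE 0.116, adjusted p 0.0491), with SFs at -0.56 (adjusted p 0.0478) and with EVs at -0.64 (adjusted p 0.00793). All 3 of these calls were lost without mouse 1 or mouse 3, with adjusted p between 0.111 and 0.586 there. Of the 12 measured genes for proteases and pore-forming proteins that process or release IL-1 family cytokines, Casp4 was the only one called with OGN, 0 of 12 in Epcam+ cells (2.7% of all genes) and 1 of 12 in fibroblasts (4.56%), which is near these shares. The 14 EV calls in fibroblasts (8 higher, 6 lower) fell to 2 without the EV-treated libraries of mice 2 and 4, and to 1 without mouse 2 altogether. The calls over all genes fell as well, from 4207 of 11689 to 645 of 11777 and to 19 of 11710.

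**Figure D4:**
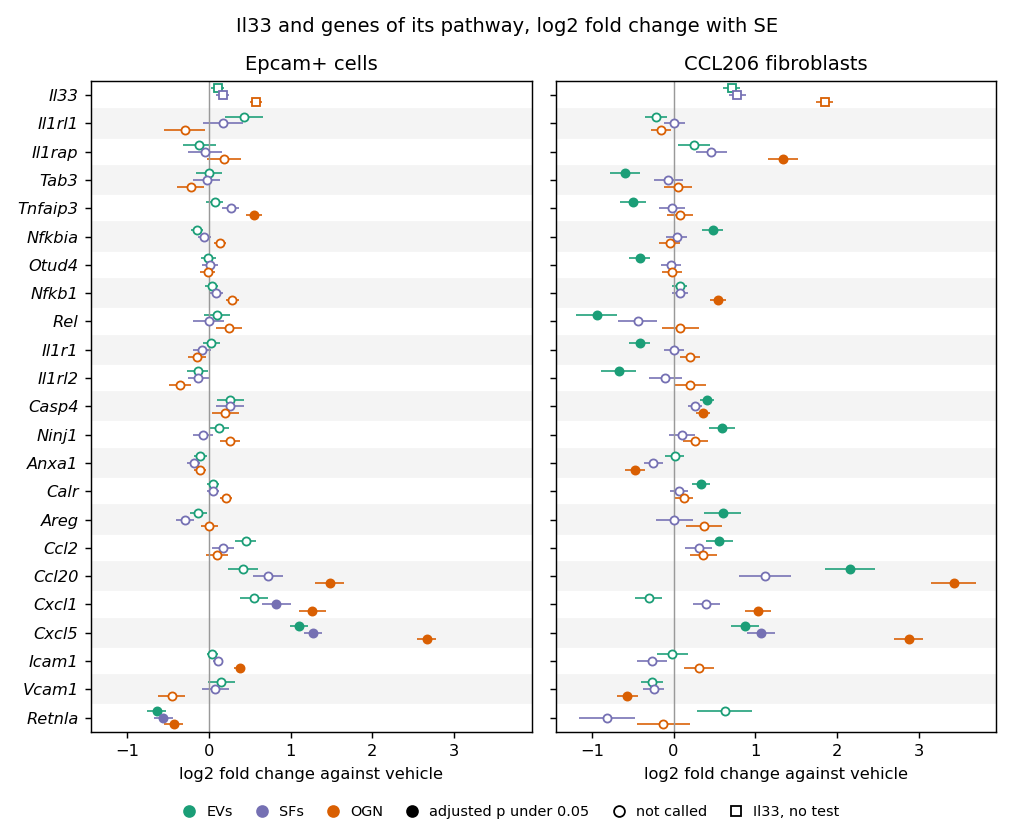
Log2 fold change against vehicle (horizontal axis) with its SE for Il33 and for Il1rl1 and the list genes called in at least 1 comparison, in Epcam+ cells (left) and CCL206 fibroblasts (right). Colours are treatments, filled circles have an adjusted p under 0.05, open circles do not, and squares are Il33, which was not tested. Cxcl5 and Ccl20 lie farthest to the right with OGN in both panels, and Il33 lies at 0.58 and 1.85.

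Genes whose pattern was nearest to that of Il33 were looked for by the root mean square difference in log2 units, with values of 11817 other genes over the 8 group means and of 11615 over the 6 responses. They were picked for this likeness, so their values carry no test. Over the centred group means, Ptges was nearest at 0.216, followed by Itga1 at 0.219, Slc16a1 at 0.297, Ldha at 0.307 and Tlr2 at 0.315, where the median gene was at 0.728. Ptges, encoding a terminal prostaglandin E synthase, had 45.2 ± 3.66 CPM (SD, n = 4) in vehicle-treated fibroblasts and 155 ± 11.9 CPM with OGN, and 85.9 ± 17.5 CPM and 121 ± 16.3 CPM in Epcam+ cells. Ptges thus shared with Il33 the higher vehicle level in epithelium and the larger OGN response in fibroblasts. Slc16a1 and Ldha encode a lactate transporter and lactate dehydrogenase A, and Tlr2 a receptor for bacterial lipoproteins. Itga1 and Tlr2 were low, with group means of 3.43 to 10.4 and 2.56 to 7.70 CPM and as few as 8 and 4 counts in a library. In fibroblasts Itga1 had log2 fold changes of only 0.06 with SFs and 0.03 with EVs. In Epcam+ cells Tlr2 had 4.72 CPM with vehicle and 4.95 CPM with OGN. Both thus differed from Il33 there. Over the 6 responses the nearest were Bbln at 0.135, Cd14 at 0.145, Ankrd37 at 0.16, Arg2 at 0.188 and Ptges at 0.202, against a median of 0.937. Cd14, a co-receptor for lipopolysaccharide, had log2 fold changes with OGN of 1.76 in fibroblasts and 0.76 in Epcam+ cells. Its level differed from that of Il33 in that vehicle-treated Epcam+ cells had 264 ± 18.6 CPM and fibroblasts 30.6 ± 3.58 CPM. The lists had 1 gene, Ptges, in both.

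**Figure D5:**
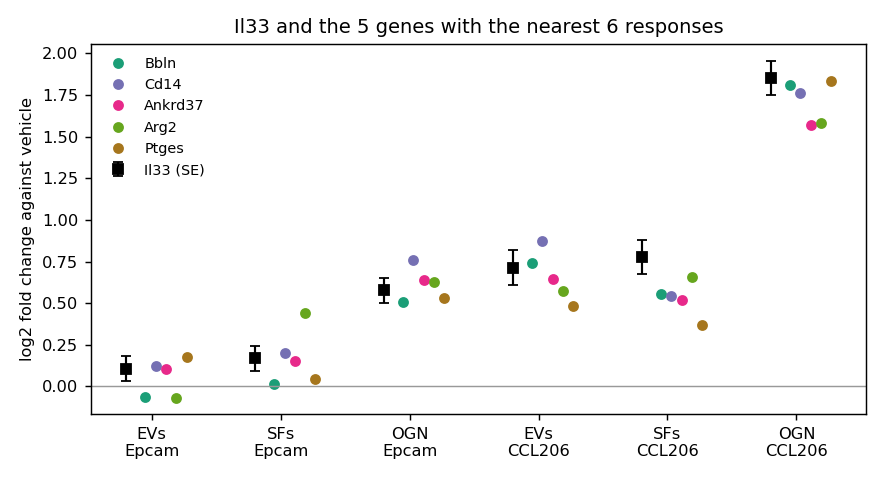
Log2 fold change against vehicle (vertical axis) of Il33 (black squares, with SE) and of the 5 genes with the smallest root mean square difference over 6 comparisons (coloured circles), by treatment and population. The 6 genes lie between 1.57 and 1.85 with OGN in fibroblasts, and between -0.07 and 0.44 with EVs and SFs in Epcam+ cells.

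Genes beside Il33 on chromosome 19 were read as well. The nearest measured protein-coding genes were Ranbp6, 9930021J03Rik, Ermp1, Ric1 and Cd274 on one side, between 112 and 537 kb away, and Uhrf2, Cstf2t, Asah2, Sgms1 and Minpp1 on the other, between 69.7 and 2525 kb away. A further 2 and 6 protein-coding genes in these stretches were not in the table, Mlana and Gldc among them. None of the 10 was called with OGN (2.7% of all genes in Epcam+ cells, 4.56% in fibroblasts) or SFs (0.23% and 0.0599%), Cd274 being tested in fibroblasts only. For 10 genes this is near these shares. Cd274, encoding the immune checkpoint ligand PD-L1, had a log2 fold change of -1.12 (SE 0.428, adjusted p 0.191) with OGN there. Uhrf2, the closest, had a log2 fold change with OGN of 0.15 (SE 0.102, adjusted p 0.602) in Epcam+ cells and of 0.28 (SE 0.123, adjusted p 0.282) in fibroblasts. For Ranbp6, the closest on the other side, these were -0.14 (SE 0.217, adjusted p 0.859) and -0.17 (SE 0.171, adjusted p 0.726). With EVs in fibroblasts 4 of the 10 were called, of which 9930021J03Rik, Ric1 and Asah2 were lower and Minpp1 was higher, in the comparison with 36% of all genes called.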

How the data were processed

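RNA of the re-sorted Epcam+ and CCL206 fractions of 16 organoid cultures was sequenced. The authors deposited 1 table of raw read counts for 11818 genes in 32 libraries, each with 1 count or more in all libraries, and the filter behind this is not stated. Per the labels, reads were trimmed with Trimmomatic 0.30 and counts were compared with DESeq2 1.34.0. The labels name GRCm39 and the study's methods GRCm38.p6, and the aligner and counter are not given in the sources used here. Library totals ran from 1805914 to 17675454 counts.

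Counts were analysed in R 4.3.3 with edgeR 4.0.16 (TMM scaling, filterByExpr, quasi-likelihood test), with treatment and mouse in a fit of the 16 libraries of each population, and with all 32 libraries for differences between populations. Genes were called at a Benjamini-Hochberg adjusted p under 0.05 over all genes tested. The 8 libraries of a mouse number come from 1 animal, which pairs them. Residuals of same-mouse groups correlated at a mean r of 0.144 over 24 correlations, from -0.0547 to 0.489, against -0.0465 between mice. No 2 replicates were identical or within sampling noise. Alternatives were no mouse term, RLE size factors, other count filters (none, or at least 10 counts in every library), DESeq2 1.42.0, each mouse left out, other sets of libraries and removal of the trend on transcript length, the latter with lengths for 11617 genes. The script was tested on simulated data. Promoter windows are from RefSeq (GRCm38.p6).

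Named were Il33, Il1rl1 and Il1rap, list genes called in a comparison, cell type markers, the 5 genes nearest to Il33 by each of 2 measures, and the 5 measured neighbours on each side. Il1rn, Il18bp and genes not in the table were added after their values were seen. Il33 and the gene lists were chosen with earlier results of these data known.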

Additional observations from a re-analysis of the deposited data

Results flagged for a closer look

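Among 77 groups of 4 values (levels, changes and ratios of Il33, and levels of Il1rl1, Il1rap, Ccl20, Cxcl5, Ptges, Cd14 and Bbln), 2 (2.6%) held a library far from the other 3, where chance gives about 1 in 20. In vehicle-treated fibroblasts, mouse 2 had 39.6 CPM of Il1rl1 against 38.9 to 39.0 CPM in the other mice, a gap that is wide only beside the small range. In vehicle-treated Epcam+ cells, mouse 4 had 59.8 CPM of Ptges against 91.7 to 97.4 CPM. That library also had the lowest Il33 level of its group. Il33 itself held no such value.

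The response differed between CCL206 fibroblasts and Epcam+ cells in 11 of 207 interaction tests of 69 named genes (edgeR, adjusted p under 0.05), 1 with OGN, 0 with SFs and 10 with EVs. With OGN it was Ccl20, by 1.93 on the log2 scale (adjusted p 0.00302), a call lost without mouse 1 (0.0935) or mouse 3 (0.223). With EVs the fibroblast response was the higher for Ccl20 (1.68, adjusted p 0.0055), Retnla (1.21, adjusted p 0.0138), Areg (0.69, adjusted p 0.0412) and Nfkbia (0.60, adjusted p 0.0083). It was the lower for Rel (-1.06, adjusted p 0.0167), Cxcl1 (-0.87, adjusted p 0.0183), Ric1 (-0.78, adjusted p 0.0184), Il1rl1 (-0.68, adjusted p 0.039), Tnfaip3 (-0.59, adjusted p 0.034) and Capn2 (-0.32, adjusted p 0.0275). In that comparison 23.8% of all genes were called. With the trend on transcript length taken out, 9 of these 10 calls were lost (adjusted p from 0.0619 to 0.627) and that of Cxcl1 was kept (-1.47, adjusted p 0.00755), while the count over all genes went from 2815 to 1378. Leaving out EV-treated fibroblasts of mice 2 and 4, all 10 were lost (adjusted p from 0.114 to 0.499) and 33 genes were called. Without mouse 4 all 10 were lost (adjusted p from 0.0574 to 0.293), and without mouse 2 all but that of Ccl20 (adjusted p 0.0138), with 261 and 351 genes called. Without mouse 1 those of Il1rl1, Tnfaip3 and Capn2 were lost, and without mouse 3 that of Cxcl1.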

How the results depend on the processing

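The 10 fitted values of Il33 kept their direction and moved by less than 1 SD of the mice in all 115 alternatives. Leaving out 1 of 4 mice moves a mean over the mice by less than that SD whatever the values. Those alternatives could therefore hardly have passed this limit. Counts of list genes called were less stable, and so were the counts over all genes. Without the mouse as replicate block the list counts were 1 (SFs, Epcam+), 1 (EVs, Epcam+) and 5 (OGN, fibroblasts), against 3, 2 and 8. With all 32 libraries they were 1 and 1 for SFs and EVs in Epcam+ cells. Over all genes the counts were 6, 9 and 448, then 6 and 90, against 27, 104 and 533. With only the 8 libraries compared the list counts were 13 (OGN), 6 (SFs) and 2 (EVs) in fibroblasts, against 8, 1 and 14. Over all genes they were 1370, 302 and 387, against 533, 7 and 4207. Without the EV-treated libraries the list counts were 18 (OGN) and 2 (SFs), with 1770 and 108 over all genes. A setting chosen after seeing the data left out EV-treated fibroblasts of mice 2 and 4. There the list counts were 15 (OGN) and 2 (EVs), with 1620 and 645 over all genes. With the trend on transcript length taken out 9 list genes were called for EVs, and 2756 over all genes. Ccl2 (-0.11) and Otud4 (0.021) changed direction there. With 1 mouse left out the list counts ran from 1 to 3 (SFs) and 1 to 4 (EVs) in Epcam+ cells. In fibroblasts they ran from 5 to 6 (OGN), 0 to 1 (SFs) and 1 to 18 (EVs). Over all genes the counts ran from 11 to 32 and 17 to 156 in Epcam+ cells. In fibroblasts those ran from 236 to 411, 2 to 5 and 19 to 4556. Of the neighbouring genes, 1 was called with OGN in fibroblasts in each of the 3 settings with fewer EV-treated libraries, against 0. With EVs there 0 were called with only the 8 libraries or without the libraries of mice 2 and 4, against 4, and 0 to 4 with 1 mouse left out. The cause was not tested. The SE of Il33, between 0.0752 and 0.129, limits which smaller differences the 4 mice can show.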
